A study of Homo sapiens with 6 samples.

Results

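The enzymes that supply deoxynucleotides for DNA synthesis were examined at the RNA level in SW480, a widely used human cell line from a colon adenocarcinoma. The group holds 9 genes, taken by symbol from the 20289 genes of the deposited table. They are the ribonucleotide reductase subunits RRM1, RRM2 and RRM2B, the thymidylate enzymes TYMS and DUT, the salvage kinases TK1 and DCK, and the nucleotide hydrolases DCTPP1 and SAMHD1. The tested cultures are labelled MUCP1-FLAG, with MUCP1-Flag overexpression as both genotype and treatment, in 3 libraries. The control cultures are labelled LV-NC, genotype WT, also in 3 libraries. Cells of both groups grew in serum-supplemented L-15 with antibiotics, and mRNA libraries were sequenced. The labels call the libraries biological replicates and name no clone, passage, day or batch, so p-values measure the spread between these libraries. No row of the table is named MUCP1, and the overexpression was not verified here. The study asked which transcripts change with raised MUCP1, with an eye to metabolism and signalling.

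Cells make deoxynucleotides along a de novo route and a salvage route. In the de novo route, ribonucleotide reductase, a complex of the large catalytic subunit RRM1 with a small radical-bearing subunit, RRM2 in cycling cells or RRM2B in resting or damaged cells, removes the ribose 2′ hydroxyl of nucleoside diphosphates. TYMS methylates dUMP to dTMP, and DUT converts dUTP to dUMP, which keeps dUTP out of DNA. In the salvage route, TK1 and DCK phosphorylate imported thymidine and deoxycytidine. DCTPP1 and SAMHD1 break deoxynucleoside triphosphates down again, and SAMHD1 is known to limit the pool outside S phase. RRM2, TYMS and TK1 are textbook genes of the G1/S transition, and E2F sites and CCAAT boxes are common elements in promoters of such genes.

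Promoter windows from RefSeq (GRCh38.p14; 250 bases before to 50 after a transcript start) were matched for 8 of the 9 genes, in 13 windows. They were searched on both strands for the CCAAT box (CCAAT) and for E2F sites (TTTCCCGC, TTTCGCGC, TTTGCCGC or TTTGGCGC). The stretches of 30 bases below are shown because they carry these matches beside the starts of genes whose transcripts are compared in the next paragraphs. They are written 5′ to 3′ on the gene's strand, and capitals mark the matched letters in either orientation.
RRM2 (chr2:10122603-10122632, plus strand): gggcaaggcgcagCCAATgggaagggtcgg
RRM2 (chr2:10122633-10122662, plus strand): aggcatggcacagCCAATgggaagggccgg
RRM2 (chr2:10122660-10122689, plus strand): cggggcaccaaagCCAATgggaagggccgg
RRM1 (chr11:4094644-4094673, plus strand): ggcatgtccatatCCAATggggcccatggg
TK1 (chr17:78187113-78187142, minus strand): cggccgggcgctgATTGGccccatggcggc
TK1 (chr17:78187082-78187111, minus strand): gggccggctcgtgATTGGccagcacgccgt
TYMS (chr18:657603-657632, plus strand): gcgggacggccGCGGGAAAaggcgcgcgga
DUT (chr15:48332151-48332180, plus strand): gctgGCGGGAAAtttcggtTTTGGCGCgct
DCK (chr4:70993659-70993688, plus strand): gctgcctccgcGCGCCAAAgtcaaaccccg
SAMHD1 (chr20:36951735-36951764, minus strand): caggaggCCAATaggctgCCAATactcctt

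RRM2 carried the CCAAT box in 3 neighbouring copies, whose matches begin 123, 93 and 66 bases before the start and share the 15 bases agCCAATgggaaggg. These 3 copies are counted from the RefSeq start at chr2:10122739. The window of the other RRM2 start, chr2:10122568, held 1 CCAAT box, 249 bases before that start, which is not shown. The matches of TK1 begin 77 and 46 bases before its start at chr17:78187052, in the reverse orientation. The window of its other start, chr17:78187204, held no CCAAT box. The match of RRM1 begins 28 bases before its start. DUT held 2 E2F matches, and TYMS and DCK held 1 each in the window shown. Of the 13 windows, 5 held a CCAAT box, against 34.6% of all 34943 windows, and 3 held an E2F match, against 3.3% of all windows. Some windows of the same gene overlap. Counted by gene, 4 of the 8 held a CCAAT box and 3 of the 8 an E2F match. RRM2 and TK1 held no E2F match in any window. The cell cycle element TTTGAA was found in 2 of the 13 windows and in 15.2% of all windows, and TTTAAA, which reads the same on both strands, in 3 of the 13 and 12.2% of all. Each motif was counted on its own, and no letters are shared between the matches shown. Genes of both kinds, with and without a changed transcript, held matches: DCK had an E2F match and SAMHD1 a pair of CCAAT boxes.

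Library totals lay between 17333329 and 23282604 counts in MUCP1-FLAG and between 18867369 and 21534908 counts in LV-NC. Of the 8 colon epithelial markers, KRT8 and KRT18 stood at 1562 FPKM or more in every library, whereas KRT20 and CEACAM5 stayed under 1 FPKM in all. The summed FPKM of these markers, most of it KRT8 and KRT18, was 3782 to 3883 in MUCP1-FLAG and 3585 to 3906 in LV-NC. The sum says little about the less abundant markers, of which EPCAM, CDH1 and VIL1 were called lower in MUCP1-FLAG. Of 12 markers of blood, endothelial and stromal cells, 11 stayed under 1 FPKM in every library, and PTPRC, PECAM1, CDH5, COL1A2 and DCN were listed at 0. Their sum, nearly all of it CD68, was 5.47 to 7.83 FPKM in MUCP1-FLAG and 10.0 to 11.8 FPKM in LV-NC.

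RRM2, TYMS, RRM1, TK1 and DUT, which carry the de novo and thymidine steps, rose in MUCP1-FLAG, by 1.27-fold (RRM1) to 1.55-fold (TYMS). None of the 9 genes fell, and RRM2B, DCK, DCTPP1 and SAMHD1 did not pass the test. A gene is called here when its adjusted p lies under 0.05 in edgeR's quasi-likelihood test, fitted over 12920 genes, with all 9 members above the count filter. The 5 of 9 called higher stand beside 8.35% of all tested genes called higher, and the 0 of 9 called lower beside 7.71% called lower. The median log2 fold change of the 9 genes was 0.35, against 0.00 for all tested genes. In 6 members every MUCP1-FLAG library lay above every LV-NC library, as in 16.6% of tested genes, and in 1, SAMHD1, every one lay below, as in 16.4%. In bulk RNA, a change in the number of cells in a cycle phase and a change in RNA per cell cannot be told apart. Values below are CPM after TMM scaling unless another unit is given. Folds are MUCP1-FLAG over LV-NC, errors of log2 fold changes are standard errors, and other errors are SD with n = 3.

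**Figure D1:**
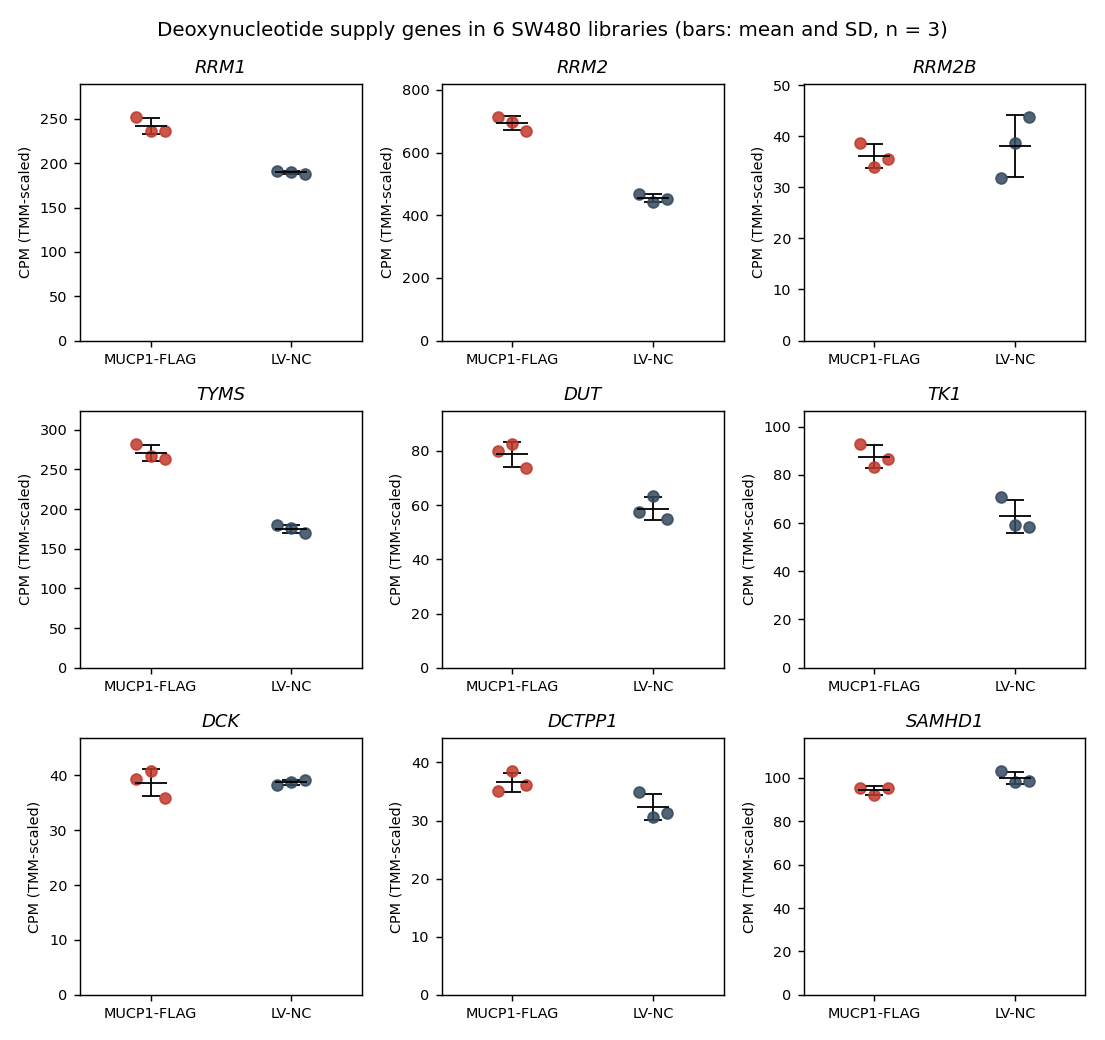
CPM of the 9 deoxynucleotide supply genes in each library (y axis from 0, TMM-scaled), with MUCP1-FLAG left and LV-NC right in each panel. Points are libraries and bars the mean and SD (n = 3). RRM1, RRM2, TYMS, DUT, TK1 and DCTPP1 do not overlap between the groups and are higher in MUCP1-FLAG, SAMHD1 does not overlap and is lower, and RRM2B and DCK overlap.

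Among the reductase subunits, RRM2, whose level sets reductase activity through the cell cycle, had the highest level. RRM2 read 713, 698 and 668 CPM in MUCP1-FLAG, against 469, 443 and 453 CPM in LV-NC. The 3 MUCP1-FLAG libraries were all higher, and the gap between the groups was several times the spread within either. The means were 693 ± 22.8 and 455 ± 13.01 CPM, a 1.52-fold difference (log2 fold change 0.61 ± 0.04, 95% interval 0.51 to 0.70, edgeR adjusted p = 3.87e-09).

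RRM1, the large catalytic subunit at chr11:4094707-4138876 (GRCh38), changed less. It had 252, 237 and 237 CPM in MUCP1-FLAG and 191, 191 and 188 CPM in LV-NC. The LV-NC libraries were nearly equal, and all 3 MUCP1-FLAG libraries lay above them. The log2 fold change of RRM1 was 0.35 ± 0.05 (95% interval 0.25 to 0.44, edgeR adjusted p = 1.69e-05).

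RRM2B, the p53-inducible small subunit that serves DNA repair and mitochondrial DNA, showed another pattern. It had 38.7, 34.0 and 35.5 CPM in MUCP1-FLAG and 31.8, 38.7 and 43.7 CPM in LV-NC. The groups overlapped, and the LV-NC libraries were the more widely spread, with LV-NC replicate 1 the lowest of all 6 and LV-NC replicate 3 the highest. Its log2 fold change was −0.08 ± 0.09, with a 95% interval of −0.28 to 0.12 (edgeR adjusted p = 0.628), and it was 0.03 without LV-NC replicate 3. RRM2B is a p53 target gene. Of 13 other p53 targets none was called in either direction by edgeR or by DESeq2. Over all tested genes edgeR called 8.35% higher and 7.71% lower. At an unadjusted p under 0.05 in edgeR 1 target was higher and 1 lower, but the share of all tested genes at that cutoff was not computed. GDF15, a stress-induced cytokine, was at 37.2 ± 0.63 CPM in MUCP1-FLAG and 43.0 ± 4.83 CPM in LV-NC (edgeR adjusted p = 0.0612). Without LV-NC replicate 3, 2 of the 13 targets were called lower, GDF15 among them (edgeR adjusted p = 0.00185). GDF15 was also called with library totals, with upper-quartile scaling or with no low-count filter (edgeR adjusted p of 0.0376 to 0.0454). SESN1, a stress-induced antioxidant regulator, was at 7.53 ± 0.41 CPM in MUCP1-FLAG and 6.14 ± 0.15 CPM in LV-NC (edgeR adjusted p = 0.116).

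TYMS, the thymidylate synthase and the target of 5-fluorouracil, had the largest fold of the 9 genes. It had 282, 267 and 263 CPM in MUCP1-FLAG, against 180, 176 and 169 CPM in LV-NC. Every MUCP1-FLAG library was higher, with no approach between the groups. The means of 271 ± 9.76 and 175 ± 5.40 CPM differed 1.55-fold (log2 fold change 0.63 ± 0.05, 95% interval 0.53 to 0.73, edgeR adjusted p = 4.97e-09). The interval of TYMS contains the value of RRM2, and no test between these genes was made.

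DUT, the dUTPase at chr15:48331011-48343373, had 79.9, 82.5 and 73.7 CPM in MUCP1-FLAG and 57.6, 63.3 and 55.0 CPM in LV-NC. The groups did not overlap, although within each group the libraries varied by more than those of TYMS did relative to the mean. The fold was 1.34 (log2 fold change 0.42 ± 0.06, 95% interval 0.29 to 0.56, edgeR adjusted p = 7.09e-05).

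Of the salvage kinases, TK1, the cytosolic thymidine kinase of cycling cells at chr17:78174075-78187233, rose and DCK was level. TK1 had 92.6, 83.2 and 86.6 CPM in MUCP1-FLAG and 70.8, 59.2 and 58.2 CPM in LV-NC. LV-NC replicate 1 stood above the other LV-NC libraries but below every MUCP1-FLAG library. The fold was 1.39 (log2 fold change 0.48 ± 0.07, 95% interval 0.33 to 0.62, edgeR adjusted p = 6.54e-05). DCK, the deoxycytidine kinase that activates cytarabine and gemcitabine, had 39.4, 40.7 and 35.9 CPM in MUCP1-FLAG and 38.3, 38.8 and 39.2 CPM in LV-NC. All 3 LV-NC values lay inside the range of the MUCP1-FLAG values. The log2 fold change of DCK was 0.00 ± 0.07, and its 95% interval, −0.14 to 0.14, lies wholly below that of TK1.

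The hydrolases DCTPP1 and SAMHD1 moved little. DCTPP1, a pyrophosphatase of dCTP and modified dCTP at chr16:30423619-30430075, had 35.1, 38.4 and 36.1 CPM in MUCP1-FLAG and 34.8, 30.6 and 31.4 CPM in LV-NC. The groups did not overlap, but MUCP1-FLAG replicate 1 and LV-NC replicate 1 were almost equal. Its log2 fold change was 0.18 ± 0.07 (95% interval 0.03 to 0.33) and it was not called (edgeR adjusted p = 0.0933). Without LV-NC replicate 1 the log2 fold change of DCTPP1 was 0.24 and it was called (edgeR adjusted p = 0.0232). SAMHD1, the triphosphohydrolase at chr20:36889773-36951901, had 95.2, 92.1 and 95.5 CPM in MUCP1-FLAG and 103, 98.4 and 98.6 CPM in LV-NC. All MUCP1-FLAG values were lower, by a margin of the size of the spread within the groups. The log2 fold change of SAMHD1 was −0.09 ± 0.05 (95% interval −0.19 to 0.02, edgeR adjusted p = 0.288).

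**Figure D2:**
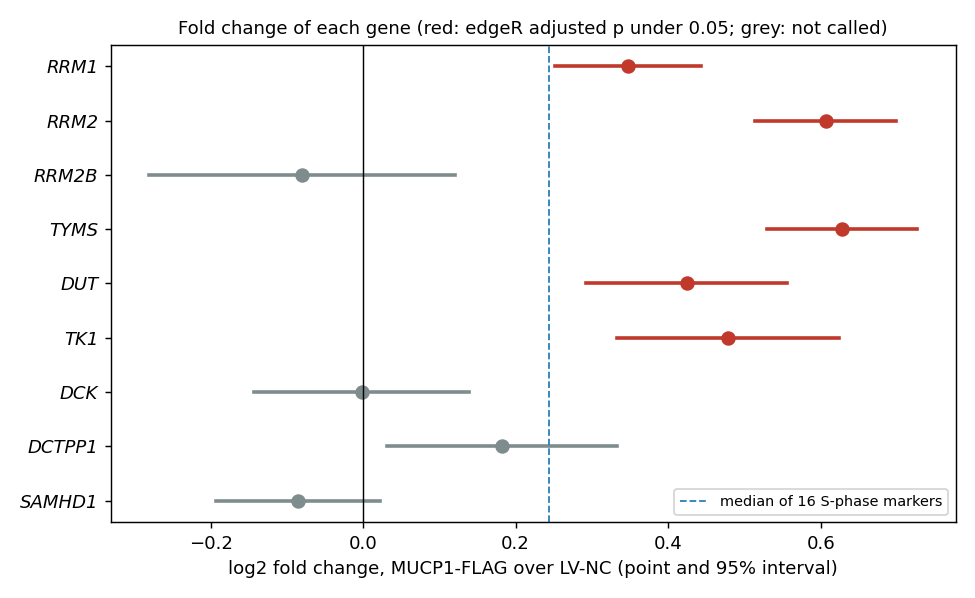
Log2 fold change of MUCP1-FLAG over LV-NC for each of the 9 genes, with the 95% interval of the edgeR fit; red marks an adjusted p under 0.05, and the dashed line is the median of 16 S-phase markers, 0.24. The intervals of RRM1, RRM2, TYMS, DUT, TK1 and DCTPP1, the last not called, lie wholly above 0, with RRM2 and TYMS the highest at 0.61 and 0.63.

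On the length-scaled FPKM scale, which allows levels of different genes to be compared, the order in MUCP1-FLAG was RRM2 (211 ± 6.41 FPKM), TYMS (168 ± 5.89), RRM1 (76.7 ± 2.86), TK1 (66.6 ± 2.79), DUT (65.2 ± 3.85), DCTPP1 (31.0 ± 1.20), SAMHD1 (22.8 ± 0.76), DCK (15.2 ± 0.89) and RRM2B (8.48 ± 0.28). In LV-NC, RRM2 was again the highest at 141 ± 4.01 FPKM, followed by TYMS at 109.6 ± 3.03 FPKM and RRM1 at 60.9 ± 0.24 FPKM. DUT had 50.6 ± 5.40 FPKM there and TK1 49.6 ± 4.53 FPKM. The lower end in LV-NC was DCTPP1 at 27.6 ± 1.94, SAMHD1 at 25.0 ± 0.60, DCK at 15.3 ± 0.24 and RRM2B at 9.38 ± 2.41 FPKM. TK1 and DUT were the only neighbours in this order whose libraries overlapped, and they did so in both groups. The 5 genes that rose were also the 5 with the highest FPKM.

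The level of RRM2B depends on the deposited scale. The length implied by its counts and FPKM varied by 6.89% between libraries (coefficient of variation), with the lowest value in LV-NC replicate 3. That variation was 4.98% for TK1, 3.52% for DUT, 2.04% for SAMHD1 and under 0.5% for RRM2, RRM1, TYMS, DCTPP1 and DCK, against a median of 1.97% over 8909 well-covered genes. In FPKM, RRM2B had 8.79, 8.40 and 8.24 in MUCP1-FLAG and 7.31, 8.81 and 12.02 in LV-NC. How reads were shared between isoforms, or between RRM2 or DUT and their processed pseudogenes, is unknown here.

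Annotated genes overlap 7 of the members. AC007240.1, a protein-coding gene on the strand of RRM2, shares 20.2% of the exonic bases of RRM2, AC023355.1 shares 14.5% of those of DUT, TYMSOS 7.41% of those of TYMS and RRM1-AS1 1.51% of those of RRM1, the last 3 on the opposite strand. No values of these 4 were analysed here. Another 4 overlapping genes were read from the table. ENOSF1, a gene on the opposite strand that shares 39.1% of the exonic bases of TYMS, had 18.6 ± 0.59 CPM in MUCP1-FLAG and 16.2 ± 0.52 CPM in LV-NC. Its log2 fold change of 0.20 ± 0.08 was not called (edgeR adjusted p = 0.116), and its level is a small part of that of TYMS. ZNF771, on the strand opposite DCTPP1, shares 42.1% of the exonic bases of DCTPP1 and had 3.01 CPM in MUCP1-FLAG and 2.85 CPM in LV-NC. TLDC2 shares 10.3% of SAMHD1 and had 7.54 CPM in MUCP1-FLAG and 8.26 CPM in LV-NC. MOB1B, on the same strand as DCK, shares 6.17% of DCK and had 36.2 ± 1.65 CPM in MUCP1-FLAG and 38.5 ± 6.43 CPM in LV-NC. None of ENOSF1, ZNF771, TLDC2 and MOB1B was called. Whether counting used strand is unknown here, and reads in the shared bases may belong to either gene.

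Ratios within a library set the members against each other without a scaling between libraries. The ratio of RRM2 to RRM1 in FPKM was 2.72, 2.83 and 2.72 in MUCP1-FLAG and 2.36, 2.24 and 2.32 in LV-NC. RRM2 to SAMHD1, the reductase subunit against the triphosphohydrolase, was 9.35, 9.64 and 8.84 in MUCP1-FLAG and 5.67, 5.42 and 5.78 in LV-NC. In both ratios every MUCP1-FLAG library was higher.

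The ratio of RRM2B to RRM2, the alternative over the cycling small subunit, was 0.0404, 0.0398 and 0.0402 in MUCP1-FLAG and 0.0506, 0.0646 and 0.0854 in LV-NC. The MUCP1-FLAG libraries were close together and all lower, and the LV-NC libraries were widely spread. TYMS to DUT was 2.56, 2.47 and 2.71 in MUCP1-FLAG and 2.24, 1.96 and 2.35 in LV-NC, again without overlap. The mean log2 differences were 0.26 for RRM2 to RRM1, 0.72 for RRM2 to SAMHD1, −0.70 for RRM2B to RRM2 and 0.24 for TYMS to DUT. Each of the 4 gave p = 0.1 in a two-sided exact permutation test, and 0.1 after adjustment over the 4, which is the smallest p that 3 against 3 libraries allow. Without 1 library in turn the difference for RRM2B to RRM2 ran from −0.89 to −0.51.

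Markers of the cell cycle moved with these genes. Of 16 S-phase markers 12 were called higher and none lower, with a median log2 fold change of 0.24. Over all tested genes 8.35% were called higher and 7.71% lower, which also stands beside the G2/M count below. At an unadjusted p under 0.05 in edgeR all 16 were higher, but the share of all tested genes at that cutoff was not computed. These lists were chosen with earlier results of these data known. PCNA, the sliding clamp of the DNA polymerases, was at 339 ± 9.85 CPM in MUCP1-FLAG and 264 ± 8.47 CPM in LV-NC (log2 fold change 0.36 ± 0.05). CDC45, part of the replicative helicase, rose by 0.47 ± 0.06, UHRF1, which maintains DNA methylation at replication, by 0.32 ± 0.05, and the licensing factor CDC6 by 0.31 ± 0.05 on the log2 scale, each with an edgeR adjusted p of at most 6.16e-05. Of 12 G2/M markers 5 were called higher and none lower, with a median of 0.17. TOP2A, the mitotic topoisomerase, was at 473 ± 25.6 CPM in MUCP1-FLAG and 371 ± 26.1 CPM in LV-NC. The kinesin KIF20A rose by 0.46 ± 0.07, the mitotic kinase PLK1 by 0.30 ± 0.06 and the proliferation marker MKI67 by 0.20 ± 0.05. The count of G2/M markers called was 3 without LV-NC replicate 2 and 8 without LV-NC replicate 3, and MKI67 was not called without LV-NC replicate 2 (edgeR adjusted p = 0.0516). Their part in the rise of the deoxynucleotide supply genes was not tested.

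The summed CPM of the 16 S-phase markers was 3869, 3730 and 3744 in MUCP1-FLAG and 3355, 3189 and 3101 in LV-NC, a log2 difference of 0.23. Per 1000 CPM of these markers, RRM2 had 184, 187 and 178 CPM in MUCP1-FLAG and 140, 139 and 146 CPM in LV-NC. TYMS had 72.8, 71.6 and 70.3 CPM in MUCP1-FLAG and 53.6, 55.2 and 54.6 CPM in LV-NC on that scale. Both remained higher in every MUCP1-FLAG library, with log2 differences of 0.37 for RRM2 and 0.39 for TYMS. A sum weighs the abundant markers most, and the log2 fold changes of the 16 markers ran from 0.13 to 0.47. Some markers, such as CDC45 (0.47) and PCNA (0.36), also rose by more than the sum, so a rise beyond it is not particular to the members.

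On the same scale TK1 had 23.9, 22.3 and 23.1 CPM in MUCP1-FLAG and 21.1, 18.6 and 18.8 CPM in LV-NC, a log2 difference of 0.25. RRM1 had 65.1, 63.5 and 63.2 CPM in MUCP1-FLAG and 57.1, 59.8 and 60.6 CPM in LV-NC, a difference of 0.11. DUT overlapped between the groups, with a difference of 0.19 (two-sided exact permutation p = 0.2). SAMHD1 was lower in every MUCP1-FLAG library, by −0.32, and DCK by −0.24, whereas RRM2B (−0.30) and DCTPP1 (−0.05) overlapped. The sum of the markers was itself higher by 0.23, so a gene of unchanged CPM reads lower on this scale. In CPM the log2 fold changes of SAMHD1 and DCK were −0.09 and −0.002, and neither was called. The scale was chosen after the values were seen, and the genes without overlap reached p = 0.1, the smallest that the exact permutation test allows here.

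**Figure D3:**
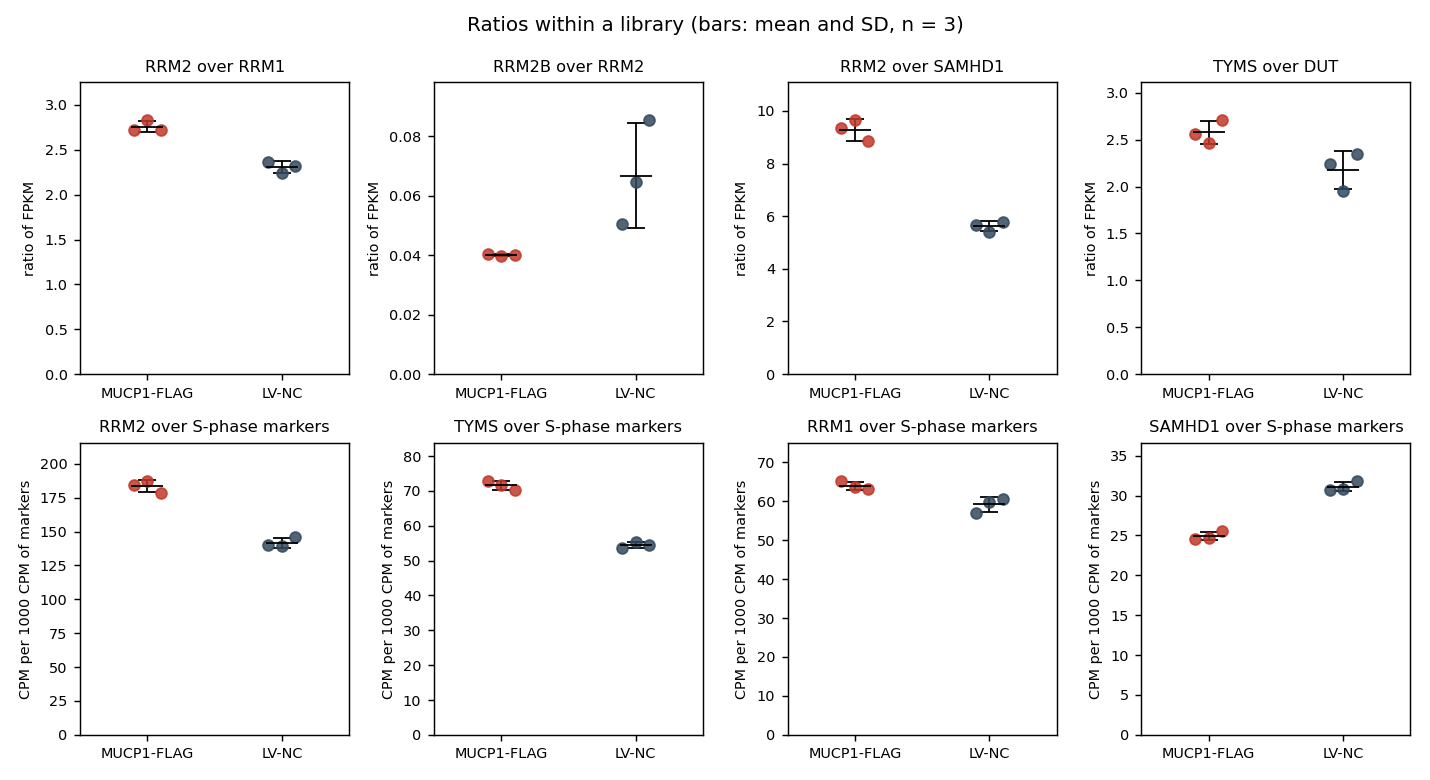
Ratios within each library, with MUCP1-FLAG left and LV-NC right; points are libraries and bars the mean and SD (n = 3), and each axis starts at 0. The top row shows ratios of FPKM between members, and the bottom row CPM of a member per 1000 CPM of the 16 S-phase markers. No panel shown overlaps between the groups, and RRM2B over RRM2 and SAMHD1 over S-phase markers are lower in MUCP1-FLAG. The summed markers were themselves higher by 0.23 on the log2 scale, which lowers every ratio over them. On the marker scale DUT, RRM2B and DCTPP1, which overlap, and TK1 and DCK, which do not, are not drawn.

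Around TYMS, 4 further genes of the thymidylate cycle and the last steps to dTTP were read, of which 1 rose and none fell, with a median log2 fold change of 0.12. SHMT1, the cytosolic serine hydroxymethyltransferase, had 69.8, 66.6 and 72.1 CPM in MUCP1-FLAG and 61.9, 55.7 and 51.8 CPM in LV-NC. The groups did not overlap, and SHMT1 rose by 0.30 ± 0.07 (edgeR adjusted p = 0.00299). DTYMK, which phosphorylates dTMP, was at 0.20 on the log2 scale and was not called (edgeR adjusted p = 0.0746), and SHMT2 and DCTD lay within 0.05 of 0. Without LV-NC replicate 1, 2 of the 4 genes were called higher.

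Among 13 other salvage enzymes and carriers 1 rose and 2 fell, with a median of 0.00. These counts stand beside 8.35% of all tested genes called higher and 7.71% called lower, and the list was not tested as a set. UPP1, the uridine phosphorylase, had 99.4, 120 and 109 CPM in MUCP1-FLAG and 217, 232 and 197 CPM in LV-NC. It fell in every MUCP1-FLAG library, to 0.51 of its LV-NC level (log2 fold change −0.98 ± 0.07, edgeR adjusted p = 3.96e-08). SLC29A2, an equilibrative nucleoside transporter, rose by 0.47 ± 0.10 (edgeR adjusted p = 0.0018). TK2, the mitochondrial thymidine kinase, fell (−0.30 ± 0.08 on the log2 scale, edgeR adjusted p = 0.0165), but was not called without MUCP1-FLAG replicate 2 (0.0847) or without LV-NC replicate 2 (0.0676). The cytosolic TK1 and the mitochondrial TK2 lay on opposite sides of 0.

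Among 10 nucleotide kinases 1 was called higher and none lower, with a median of 0.04, near the 8.35% of all tested genes called higher. NME4, a mitochondrial nucleoside diphosphate kinase, had 35.2 ± 1.37 CPM in MUCP1-FLAG and 29.01 ± 1.61 CPM in LV-NC (edgeR adjusted p = 0.00985, and 0.0552 without MUCP1-FLAG replicate 2). Among 10 other nucleotide pool hydrolases 1 was called higher and none lower, with a median of 0.02, again near that share. NUDT5, which hydrolyses ADP-ribose and oxidised nucleotides, was higher by 0.17 ± 0.06 (log2; edgeR adjusted p = 0.042). It was not called without MUCP1-FLAG replicate 1, 2 or 3 or LV-NC replicate 2, with an adjusted p of 0.063 to 0.178. With all libraries kept, NUDT5 was not called with library totals, upper-quartile scaling or a replicate block (edgeR adjusted p of 0.0644 to 0.0685), or by DESeq2 (adjusted p = 0.0607). The ring synthesis routes upstream of ribonucleotide reductase are read beside the 8.35% of all tested genes called higher and the 7.71% called lower. Of 5 pyrimidine ring genes 1 fell, CAD, the first enzyme of the route, with 170.1 ± 8.98 CPM in MUCP1-FLAG and 201 ± 4.81 CPM in LV-NC (log2 fold change −0.24 ± 0.05, edgeR adjusted p = 0.00186). Of 12 purine ring genes PAICS was called higher (0.13 ± 0.04) and IMPDH2, which opens the route to guanine nucleotides, lower (−0.16 ± 0.05), with a median of 0.06 over the list. PAICS was not called without any 1 of the MUCP1-FLAG libraries or without LV-NC replicate 2 (edgeR adjusted p of 0.113 to 0.152). Nor was PAICS called with library totals, upper-quartile scaling or a replicate block (edgeR adjusted p of 0.0548 to 0.0753). IMPDH2 was not called without MUCP1-FLAG replicate 1 or 3 or LV-NC replicate 1 or 2 (edgeR adjusted p of 0.0685 to 0.148).

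Of 14 regulators of ribonucleotide reductase and E2F partners, 7 rose and none fell, with a median log2 fold change of 0.17. Over all tested genes 8.35% were called higher and 7.71% lower. MYBL2, a transcription factor of cycling cells, had 144, 142 and 141 CPM in MUCP1-FLAG and 107, 95.9 and 92.9 CPM in LV-NC. Its groups were well separated (log2 fold change 0.53 ± 0.06, edgeR adjusted p = 9.20e-07). E2F8, a repressor among the E2F factors, had 36.4, 35.6 and 33.7 CPM in MUCP1-FLAG and 22.4, 22.2 and 24.0 CPM in LV-NC, also without overlap (log2 fold change 0.62 ± 0.07, edgeR adjusted p = 3.79e-06). CCNF, the ubiquitin ligase subunit known to target RRM2 protein for degradation, rose by 0.50 ± 0.09 (edgeR adjusted p = 0.000382). E2F7, the other atypical repressor, rose by 0.35 ± 0.10 (edgeR adjusted p = 0.0159), but was not called without MUCP1-FLAG replicate 1 (0.11) or LV-NC replicate 2 (0.086). TFDP1, E2F2 and CHEK1 made up the 7. Among the activators, E2F2 was at 10.8 ± 1.05 CPM in MUCP1-FLAG and 8.35 ± 0.60 CPM in LV-NC (edgeR adjusted p = 0.0309), and E2F3 was not called. E2F1, another activator, was at 112 CPM in MUCP1-FLAG and 108 CPM in LV-NC and was not called (edgeR adjusted p = 0.621). The number of these regulators called higher was 3 when LV-NC replicate 2 was left out, and 4 when either MUCP1-FLAG replicate 1 or replicate 3 was.

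**Figure D4:**
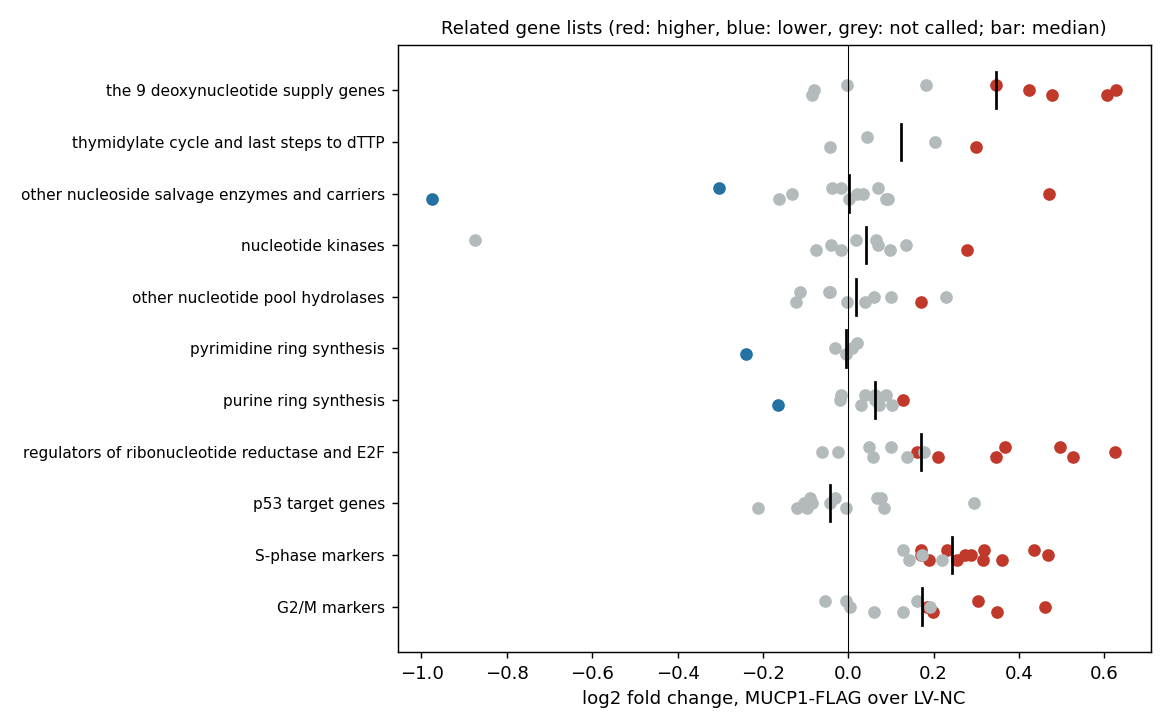
Log2 fold change of MUCP1-FLAG over LV-NC for each tested gene of the 9 deoxynucleotide supply genes and of 10 related lists; red marks genes called higher, blue genes called lower, grey genes not called, and the bar the median of a list. The medians are 0.35 for the 9 genes, 0.24 for S-phase markers and 0.17 for G2/M markers, and those of ring synthesis, salvage, kinases and hydrolases lie within 0.1 of 0.

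The annotation deposited with the counts places 8 of the 9 genes, all but SAMHD1, in KEGG pyrimidine metabolism, with 60 rows in all. Of its 49 tested genes 7 were called higher and 4 lower. Without the 9 members, 41 genes remained, of which 2 were called higher and 4 lower, with a median log2 fold change of −0.01. In KEGG purine metabolism, 90 tested genes outside the members held 9 called higher and 7 lower. Over all tested genes the shares were 8.35% called higher and 7.71% called lower.

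The authors' deposited table holds its own log2 ratio and adjusted p per gene. By that adjusted p the same 5 genes were higher in MUCP1-FLAG at a threshold of 0.05, beside 4.06% of the 20289 genes in the authors' deposited table. The log2 ratios in the authors' deposited table equal the ratios of the group mean FPKM, a measure other than the TMM-scaled fold changes of counts given above. They were 0.59 for RRM2, 0.61 for TYMS, 0.33 for RRM1, 0.42 for TK1 and 0.37 for DUT. For the others the authors' deposited table gives 0.16 (DCTPP1), −0.13 (SAMHD1), −0.15 (RRM2B) and −0.01 (DCK), with adjusted p of 0.233 or above.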

How the data were processed

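RNA from 6 SW480 cultures was sequenced as mRNA libraries. The table that the authors deposited holds, per library, whole-number counts of reads and FPKM for every gene, and for each group the mean FPKM, with their own log2 fold change, p-value and adjusted p-value per gene. Per the submitters' processing notes, the build was GRCh38 and the tools included DESeq2, featureCounts, HISAT2 and fastp, with neither versions nor roles. The sources used here give neither the lengths behind FPKM, nor the counting's strand setting, nor the test behind the deposited p-values. Gene positions and overlaps came from GENCODE (GRCh38), since the files give none, and promoter bases from RefSeq (GRCh38.p14). Of the 20289 rows, 583 had no symbol.

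Counts were tested with edgeR 4.0.16 (R 4.3.3; quasi-likelihood F test, robust, TMM scaling) after filterByExpr with a minimum count of 10, and p-values were adjusted by the Benjamini-Hochberg method over 12920 genes. The common biological coefficient of variation was 0.0521. DESeq2 1.42.0, limma 3.58.1 (voom, and log2 of FPKM plus 1 or 0.1, for genes of at least 0.5 FPKM in 3 libraries) and other scalings and filters were alternatives, and each library was left out in turn. Scripts were checked on simulated counts. Counting error alone is small for the members, whose counts ran from 599 to 16039. Ratios were tested by exact permutation over 20 arrangements.

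The 9 genes and the 12 gene lists were chosen with earlier results of these data known. One listed gene is not reported here and was taken off its list after the fit. Named genes were the 9, the 4 with the smallest adjusted p among the called genes of each list (2 with the smallest p where none was called), genes overlapping a member, and the 5 most like RRM2. Other genes named for context (DTYMK, SHMT2, DCTD, TFDP1, E2F2, CHEK1, E2F1, E2F3, KRT18, KRT8, CDX2) were chosen after their values were seen, as was the scale of S-phase markers. Replicates of a group differed by more than counting noise, with a chi-square per degree of freedom of 2.58 to 8.22.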

Additional observations from a re-analysis of the deposited data

How the results depend on the processing

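RRM2, TYMS, RRM1, TK1 and DUT stayed higher and called under all 16 alternatives, and the 4 ratios between members kept their direction under their 8 (CPM in place of FPKM, the pairing by number, and each library left out). The log2 fold change ran from 0.58 to 0.63 for RRM2, 0.60 to 0.65 for TYMS, 0.31 to 0.36 for RRM1, 0.42 to 0.57 for TK1 and 0.36 to 0.48 for DUT. DCTPP1 ran from 0.14 to 0.24 with 1 library left out and was called at 0.24 without LV-NC replicate 1. RRM2B ran from −0.19 to 0.028, and DCK from −0.041 to 0.047, with 1 library left out, and DCK was at 0.0032 with no low-count filter. Over all tested genes, limma on log2(FPKM + 1) called 524 higher and 553 lower, and on log2(FPKM + 0.1) 520 higher and 543 lower, against 1079 and 996 by edgeR. With 1 library left out, edgeR called 639 to 1323 higher and 624 to 1213 lower, the lowest counts without MUCP1-FLAG replicate 3, and 671 higher without LV-NC replicate 2. By limma on log2 FPKM, 3 of 14 regulators and 2 of 12 G2/M markers were called higher, against 7 and 5 by edgeR, and PLK1, MKI67, TK2, NUDT5, IMPDH2, PAICS, E2F7, SHMT1 and VIL1 lost their calls. MOB1B and ZNF771, not called in any setting, changed sign without LV-NC replicate 3 and ran from −0.17 to 0.057 and from −0.090 to 0.26 with 1 library left out. The cause of these shifts was not tested. Same-numbered libraries did not deviate together (correlations of −0.14, 0.29 and −0.05 over 7665 genes, and 2 of 6 libraries correlated best with their own number), so the numbers were not taken as pairs. With a replicate block RRM2 was at 0.61 (adjusted p = 6.80e-09) and no member's call changed. With 3 libraries per group, the exact test cannot pass 0.05.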

Other observations

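Transcripts whose pattern over the 6 libraries was most like that of RRM2, by Pearson's r of log2 CPM among genes with a mean of at least 20 CPM, were ADIPOR2 (an adiponectin receptor, r = 0.9996), GPR161, CYB5B, TIMP2 and IDI1 (isopentenyl diphosphate isomerase of sterol synthesis, r = 0.997). The libraries fall into the study's 2 groups, and 647 genes had r over 0.9, so these values mostly restate the difference between the groups and carry no test. Within the groups, as deviations from the group means, r with RRM2 was 0.70 for TYMS, 0.62 for RRM1, 0.68 for TK1, 0.55 for DCK, 0.49 for DCTPP1, 0.36 for SAMHD1, 0.11 for DUT and −0.29 for RRM2B, so genes called and not called are mixed in this order. IDI1 rose by 1.60 ± 0.08 on the log2 scale, far more than any of the 9 genes (edgeR adjusted p = 4.08e-11).

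Of the 6 epithelial markers tested, 3 were called lower and none higher, beside 7.71% of all tested genes called lower and 8.35% called higher. CDH1, the E-cadherin of cell junctions, was at 14.9 ± 0.24 CPM in MUCP1-FLAG and 31.2 ± 0.65 CPM in LV-NC. EPCAM was at 202 ± 5.04 CPM in MUCP1-FLAG and 254 ± 8.59 CPM in LV-NC, and VIL1 at 13.3 ± 1.27 CPM in MUCP1-FLAG and 17.5 ± 1.65 CPM in LV-NC, with edgeR adjusted p-values of 3.26e-09, 3.51e-05 and 0.00731. KRT18 was at 2487 ± 56.4 CPM in MUCP1-FLAG and 2281 ± 101 CPM in LV-NC, without overlap, and was not called (edgeR adjusted p = 0.0644), while KRT8 and CDX2 overlapped between the groups. With DESeq2, limma-voom, the replicate block, no low-count filter or without LV-NC replicate 1, 1 epithelial marker was called higher. CD68, a lysosomal protein, was at 8.21 ± 1.07 CPM in MUCP1-FLAG and 12.6 ± 0.45 CPM in LV-NC (edgeR adjusted p = 0.000554).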
